A study of Mus musculus with 6 samples.

Results

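Transcripts of 10 secreted hepatocyte proteins were examined in liver non-parenchymal cells (LNPCs) of mice with nonalcoholic steatohepatitis (NASH). The 10 genes, chosen by symbol, were Alb, Ttr, Apoa1, Apoa2, Apob, Apoc1, Apoc3, Apoc4, Serpina1a and Serpina1c, out of 19349 genes listed in the count tables. Each was measured in hepatocyte-like cells and as signal in marker-defined cells of other lineages. All animals were male C57BL/6J mice, 8 weeks old when purchased, and all were fed a high-fat diet (HFD) for 24 weeks. During the last 8 weeks the vehicle group was given DMSO and the ginkgetin group received ginkgetin, a plant biflavonoid, at 10 mg/kg/day by the intragastric route. Both groups therefore carried the diet, and a group on normal diet was not analysed here. LNPCs were isolated from the livers and profiled by droplet single-cell RNA sequencing, with 3 libraries per group. The sources used here do not state whether a library came from 1 animal, so p-values measure the spread between libraries.

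Hepatocytes make most plasma proteins and load lipids onto secreted lipoproteins. Albumin (Alb) is the main carrier protein of plasma, and transthyretin (Ttr) carries thyroid hormone and the retinol-binding protein. Apoa1 and Apoa2 are the main proteins of high-density lipoprotein, and Apob is the structural protein of very-low-density lipoprotein and its remnants. Apoc1, Apoc3 and Apoc4 are small exchangeable apolipoproteins that modulate lipoprotein lipase and remnant uptake. Serpina1a and Serpina1c encode alpha-1-antitrypsins, plasma inhibitors of neutrophil elastase. In suspensions of dissociated liver, transcripts of broken hepatocytes can enter droplets that hold other cells, so that a UMI (a unique molecular identifier, marking 1 captured RNA molecule) of such a gene is not by itself evidence of expression.

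On GRCm38 the genes lay partly in clusters. Apoc1 (chr7:19689481-19692660) and Apoc4 (chr7:19678083-19681479) were minus-strand neighbours 8001 bases apart, and 3448 bases separated Apoc1 from Apoe. Apoa1 (chr9:46228580-46230466, plus strand) and Apoc3 (chr9:46232933-46235636, minus strand) were 2466 bases apart. Serpina1a (chr12:103853589-103863562) and Serpina1c (chr12:103894926-103904887) were 31363 bases apart on the minus strand. Alb lay at chr5:90460897-90476602, Apoa2 at chr1:171225054-171226379 and Apob at chr12:7977648-8016835, all on the plus strand. The annotation placed Gm44805 over Apoc4 and B430119L08Rik over Serpina1c, and counts of such overlapping genes may mix. RefSeq upstream entries matched 7 of the 10 genes, Ttr, Apoc1 and Apoc3 having none. The 250 bases before the RefSeq transcript start are shown in the 5′ to 3′ direction for Alb and Serpina1c, whose transcripts were prominent outside hepatocyte-like cells, and for Serpina1a and Apoa2, whose transcripts were not. Capitals mark the letters GTTAAT, the core of the binding motif of the liver factor HNF1, searched on both strands (GTTAAT or ATTAAC).
Alb: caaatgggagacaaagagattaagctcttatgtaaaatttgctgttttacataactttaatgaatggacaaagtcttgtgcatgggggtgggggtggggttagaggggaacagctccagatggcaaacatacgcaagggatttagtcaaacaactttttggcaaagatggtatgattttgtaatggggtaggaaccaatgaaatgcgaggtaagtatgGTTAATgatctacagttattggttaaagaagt
Serpina1c: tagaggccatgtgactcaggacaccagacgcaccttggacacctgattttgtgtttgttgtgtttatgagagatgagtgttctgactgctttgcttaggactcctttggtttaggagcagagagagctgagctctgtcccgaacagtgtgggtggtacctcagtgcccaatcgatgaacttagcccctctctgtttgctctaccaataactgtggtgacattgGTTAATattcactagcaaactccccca
Serpina1a: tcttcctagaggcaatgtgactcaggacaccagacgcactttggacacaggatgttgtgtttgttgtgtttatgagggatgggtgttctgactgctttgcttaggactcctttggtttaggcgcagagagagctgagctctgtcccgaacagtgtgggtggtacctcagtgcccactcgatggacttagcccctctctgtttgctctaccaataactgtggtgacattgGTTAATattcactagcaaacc
Apoa2: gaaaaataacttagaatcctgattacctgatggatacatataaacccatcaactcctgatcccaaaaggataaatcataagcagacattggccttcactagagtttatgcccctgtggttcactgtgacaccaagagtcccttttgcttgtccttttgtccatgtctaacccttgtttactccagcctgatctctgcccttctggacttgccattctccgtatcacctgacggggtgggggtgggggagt
The windows were chr5:90460620-90460869 (plus strand), chr12:103904951-103905200 (minus), chr12:103863620-103863869 (minus) and chr1:171224804-171225053 (plus). In Alb, Serpina1c and Serpina1a the RefSeq start lies upstream of the annotated gene start given above, and distances are counted to the RefSeq start, the end of the window. The letters began 32 bases before that start in Alb, 27 in Serpina1c and 21 in Serpina1a, and were not found in the Apoa2 window shown, in a second Apoa2 window (chr1:171221314-171221563) or in those of Apoa1, Apob and Apoc4, which were shorter (200, 221 and 231 bases). They occurred in 6.43% of 32851 RefSeq windows of 250 bases. CAAAGTCCA, a motif of HNF4, was found in none of the 8 windows of the 7 genes and in 0.38% of all. TATAAA, the TATA box, lay 212 bases before the end of the Apoa2 window shown and 31 before that of Apob, and was present in 12.37% of all. A match is a description of letters only. The Serpina1a and Serpina1c windows were 95.5% identical over 244 aligned bases. Their transcripts were 98.5% identical over 1359 aligned bases, with 20 differing, and the 10 pairs among Serpina1a to Serpina1e were 96.3% to 98.5% identical. How the authors' counting divided reads among these copies is uncertain, so each Serpina1 value below carries that limit.

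The 6 libraries held 3577 to 8119 barcodes and 13128697 to 61796882 UMIs each. After a filter of 250 to 5000 detected genes and under 5% mitochondrial UMIs, 27544 of 33168 barcodes were kept, 3336 to 6918 per library. Median depth of kept cells was 2483 to 8412 UMIs. Any pair of libraries shared 0 to 85 barcodes. The replicate 3 libraries of both groups stood apart: they shared at most 1 barcode with any replicate 1 or 2 library, listed a partly different set of genes (16150 were counted in both sets) and formed clusters of their own. Cells were clustered without the 10 genes and without other listed secreted hepatocyte proteins, and 33 of 38 clusters were named from markers into 10 classes. The unnamed clusters held 3.41% to 6.05% of kept cells in the vehicle libraries and 5.90% to 21.1% in the ginkgetin libraries.

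Hepatocyte-like cells were few, since the preparation aimed at the other cells of the liver. Kept cells of this class numbered 45, 105 and 226 in vehicle libraries 1, 2 and 3, which was 0.748%, 3.15% and 5.46% of cells. The ginkgetin libraries held 0, 12 and 183, or 0%, 0.173% and 5.02%. For ginkgetin library 1 the count was 0 of 3493 cells, which allows a share of up to 0.0859% on counting error alone. The ranges overlapped (two-sided exact permutation test, p = 0.5, smallest possible p 0.1, n = 3 libraries per group). That test ignores the replicate numbers, which are not shown to pair the libraries. In each of the 3 same-numbered pairs the ginkgetin share was the lower. The class was led by Fabp1, Mup20, Bhmt, Car3 and Akr1c6, and all 18 hepatocyte markers had UMIs in it. Levels are given as CPM, the gene's UMIs in the class scaled to 1000000 UMIs of that class in the library. Summed hepatocyte markers reached 42318 to 58807 CPM in the vehicle libraries and 31302 to 41549 in the ginkgetin libraries. Endothelial markers also differed between the groups within the class: they summed to 47.5 to 281 CPM in vehicle and 2793 to 3079 in ginkgetin libraries (12 of 12 with a UMI). B cell markers summed to 247 to 361 CPM in vehicle and 47.4 to 48.6 in ginkgetin libraries (9 of 9), and plasma cell markers to 117 to 212 and 299 to 583 (8 of 9). Median depth was 3174 to 3794 UMIs per hepatocyte-like cell in vehicle libraries, and 2655 and 1382 in ginkgetin libraries 2 and 3. Median mitochondrial shares were 0.0459% to 0.305% in vehicle and 2.23% and 0.458% in ginkgetin libraries. The part of these differences in the results below was not tested.

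The carrier proteins were abundant in every library with hepatocyte-like cells. In vehicle libraries 1, 2 and 3, Alb stood at 19778, 12228 and 9488, and in ginkgetin libraries 2 and 3 at 13988 and 12307. For Ttr the vehicle values were 14715, 11889.6 and 7136 and the ginkgetin values 13186 and 3406. The groups overlapped for both genes, and vehicle 1 was the highest library for both.

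The proteins of high-density lipoprotein overlapped between groups as well. Apoa1 measured 7754, 6994 and 5722 in vehicle and 8329 and 2407 in ginkgetin libraries. Apoa2 measured 26554, 21375 and 15648 in vehicle and 24939.9 and 7208 in ginkgetin libraries. Within the ginkgetin group, library 3 was several-fold below library 2 for both genes, while library 2 lay inside or above the vehicle range. Among the small apolipoproteins, Apoc1 was at 29425, 20637 and 20583 in vehicle and 18043 and 8396 in ginkgetin libraries, without overlap. Apoc3 was at 8143, 7826 and 5742 against 7698 and 2087, and Apoc4 at 2980.0, 2614 and 2499 against 2598 and 1416. Apoc3 and Apoc4 overlapped between groups, again with ginkgetin 3 the lowest library.

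Apob, the scaffold of very-low-density lipoprotein, moved the other way. It measured 47.5, 29.7 and 91.4 in vehicle libraries and 607 and 289 in ginkgetin libraries 2 and 3, so that both ginkgetin libraries lay above every vehicle library. These values rest on few molecules, 278 Apob UMIs in all hepatocyte-like cells. Per cell this was 0.222, 0.143 and 0.469 UMIs in vehicle and 2.08 and 0.667 in ginkgetin libraries. The T cell-like Apob level was 0.529%, 7.33% and 17.9% of the hepatocyte-like level in vehicle and 0.452% and 0.181% in ginkgetin libraries. The antitrypsins were more even: Serpina1a was at 2558, 2173 and 3118 in vehicle and 3399.8 and 2597 in ginkgetin libraries, overlapping. Serpina1c was at 3886, 3543 and 3541 in vehicle and 5949.6 and 4388 in ginkgetin libraries, which did not overlap. With 3 against 2 libraries a lack of overlap arises readily by chance, and its share over all genes is not given here.

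**Figure D1:**
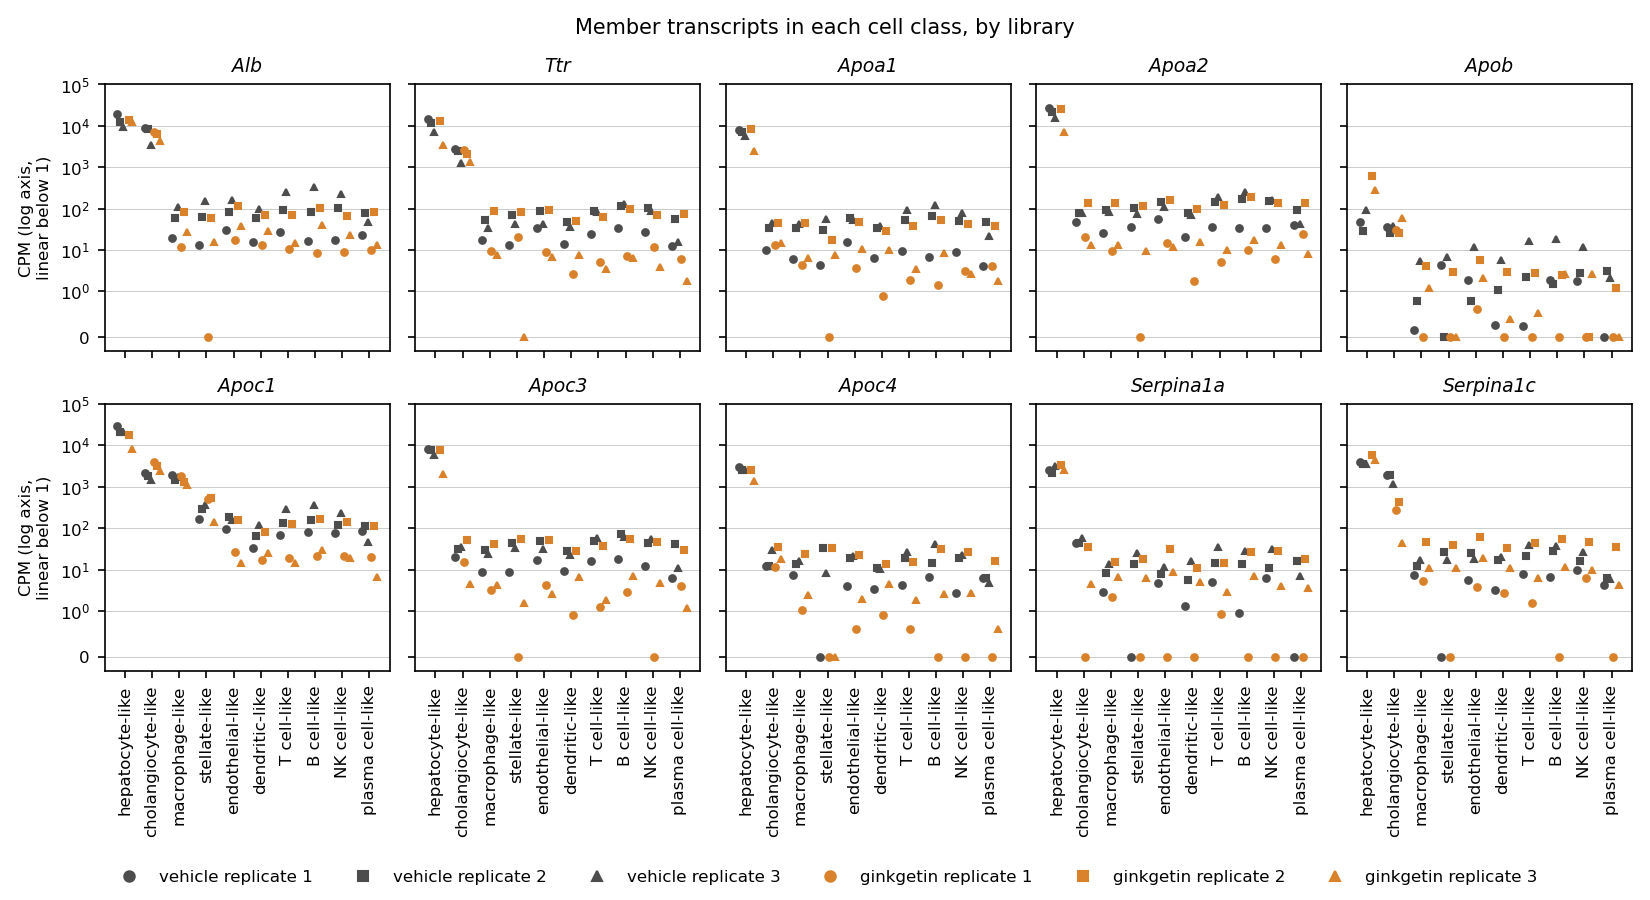
Each panel shows 1 gene, with the 10 cell classes on the horizontal axis and CPM on the vertical axis (log scale, linear below 1); each point is 1 library, grey for vehicle and orange for ginkgetin, with a shape for each replicate number. All 10 genes peak in hepatocyte-like cells, while Alb, Ttr, Apoc1 and Serpina1c also stand high in cholangiocyte-like cells and Apoc1 in macrophage-like cells.

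The question of whether ginkgetin altered these transcripts in their cells of origin was addressed with summed counts of the 5 libraries that had at least 10 hepatocyte-like cells, ginkgetin library 1 having dropped out. Of the 10 genes, 1 passed the test in edgeR (quasi-likelihood, Benjamini-Hochberg adjusted p under 0.05 and fold over 2), against 3.02% of all 4834 genes tested. Apob was higher with ginkgetin, with a log2 fold change of 2.52 (SE 0.50, adjusted p 0.0351). DESeq2 also called only Apob of the 10. With the replicate block the Apob value was 2.28 (edgeR adjusted p 0.00237), again 1 of 10 genes, against 5.19% of all genes. In hepatocyte-like cells that block left vehicle 1 without a partner, so all its values there rest on replicates 2 and 3. Little was then left to measure the spread between libraries. The ginkgetin libraries held 12 and 183 such cells, and the call was lost on leaving out vehicle 1, vehicle 2, ginkgetin 2 or ginkgetin 3, where the log2 fold change was 1.88 to 3.14, and with the UMI range (1.69), marker-gated cells (2.32), no cell filter (0.30) or the deepest cells left out (2.69). The Apoc1 estimate was -1.20 (SE 0.52, adjusted p 0.185) and the Serpina1c estimate 0.14 (SE 0.38, adjusted p 0.837); neither passed. The other log2 estimates ran from -0.96 for Apoc3 to -0.15 for Serpina1a, and the median of the 10 was -0.76 beside -0.016 over all genes tested. These estimates depended on single libraries: leaving out 1 library gave -2.21 to -0.02 for Ttr, -1.97 to 0.04 for Apoa1, -2.03 to -0.01 for Apoa2 and -2.27 to -0.16 for Apoc3, the lowest value without ginkgetin 2 and the highest without ginkgetin 3.

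In hepatocyte-like cells, the fit called 114 of all genes higher and 32 lower with ginkgetin. It called 0 without vehicle 2 and 7 without ginkgetin 3, and 1 with the UMI range, 3 with the marker gate and 6 without the deepest cells, so every call of a listed gene in these cells was lost without vehicle 2 (edgeR adjusted p 0.0831 to 0.0908). Of 27 listed further apolipoproteins and lipoprotein-handling genes, 20 could be tested, 2 were lower with ginkgetin and none higher. Apoa4, an apolipoprotein of triglyceride-rich particles, fell from 1015, 753 and 395 CPM to 0 and 4.74, with a log2 change of -7.63 (SE 0.85, adjusted p 0.0172) in edgeR. Saa1, an acute-phase protein that rides on high-density lipoprotein, fell from 1632, 251 and 692 to 97.1 and 40.3 (-4.31 on the log2 scale, edgeR adjusted p 0.0353). The groups did not overlap for either gene, and both calls were also lost without ginkgetin 3 (log2 -11.47 and -3.38, edgeR adjusted p 0.102 and 0.294). Saa1 was lost with the UMI range (-2.75) and the marker gate (-3.90) as well. Without the deepest cells only 1 gene of the list was lower. Gpihbp1, the capillary anchor of lipoprotein lipase, had a log2 estimate of 2.66 (edgeR adjusted p 0.0618) and Apoe, a ligand for remnant uptake, of -0.54 (0.569). Under the replicate block, 1 of 23 genes of the list was higher, Gpihbp1 at 3.38 (edgeR adjusted p 1.21e-05), and 3 were lower, Saa2, another acute-phase protein, being added at -3.26.

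All 29 further secreted plasma proteins were tested there, and 1 was higher and none lower. Serpina1e, another antitrypsin copy, rose from 897, 395 and 604 in vehicle to 5609.7 and 5332 in ginkgetin libraries, with a log2 change of 2.78 (SE 0.43, adjusted p 0.0258) in edgeR. Both ginkgetin libraries were far above all 3 vehicle libraries, and the call was also lost without ginkgetin 3 (edgeR adjusted p 0.0703). With the UMI range or the marker gate it was lost as well. The estimates were -1.74 for the acute-phase Orm1 (edgeR adjusted p 0.0913), -1.98 for the corticosteroid carrier Serpina6 (0.176) and -1.33 for the pheromone carrier Mup20 (0.244). Orm1 (-1.89, edgeR adjusted p 0.00815) and Mup20 (-1.73, 0.0476) were lower with the replicate block, so that 1 was higher and 2 lower. Of 18 intracellular enzymes, which also served to name the class, 2 were higher. The cytochrome Cyp2e1 rose from 128, 176 and 242 to 1578 and 1629 CPM, and Cyp2c29 from 14.2, 25.7 and 49.2 to 680.0 and 235 (log2 changes 2.79 and 3.34, edgeR adjusted p 0.0186 and 0.0289). The count of enzymes higher was 0 with the UMI range and 1 with the marker gate or without the deepest cells. Of 16 listed regulators of hepatocyte genes, 10 were tested and none passed in edgeR. Among them Hnf4a, a master factor of hepatocyte identity, had a log2 estimate of 0.80 (adjusted p 0.335). The replicate block gave 3 enzymes higher and 2 lower, and 1 of 13 regulators was lower, the acute-phase factor Cebpb at -2.09 (edgeR adjusted p 0.00578).

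A large part of the UMIs of some genes lay outside hepatocyte-like cells. Over kept cells of all libraries, hepatocyte-like cells held 76.1% to 80.3% of the UMIs of Apoa1, Apoa2, Apoc3, Apoc4 and Serpina1a. By library this was 0% in ginkgetin 1, which had no such cells, 18.3% to 26.6% in ginkgetin 2 and 73.5% to 91.3% in the other libraries. Cholangiocyte-like cells held 0.667% to 2.0% of the UMIs of those 5 genes over all libraries. In ginkgetin 1 that share was 22.6% for Apoa1, 10.8% for Apoa2, 28.6% for Apoc3, 50% for Apoc4 and 0% for Serpina1a, and in the other libraries at most 7.41%. For Alb, by contrast, hepatocyte-like cells held 39.0% and cholangiocyte-like cells 46.8%, the latter 12.4% to 96.3% by library. Ttr was split 54.8% and 29.9%, Serpina1c 52.7% and 31.3%, and Apob 31.2% and 19.2% between the same classes. By library the cholangiocyte-like share was 7.51% to 95.1% for Ttr, 1.38% to 85.1% for Serpina1c and 5.83% to 88.9% for Apob. Apoc1 had 58.3% of its UMIs in macrophage-like cells (24.9% to 74.7% by library), 27.2% in hepatocyte-like and 7.15% in cholangiocyte-like cells. Such shares join the number of cells of a class with the RNA per cell, and in summed counts fewer cells and less RNA per cell cannot be told apart.

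**Figure D2:**
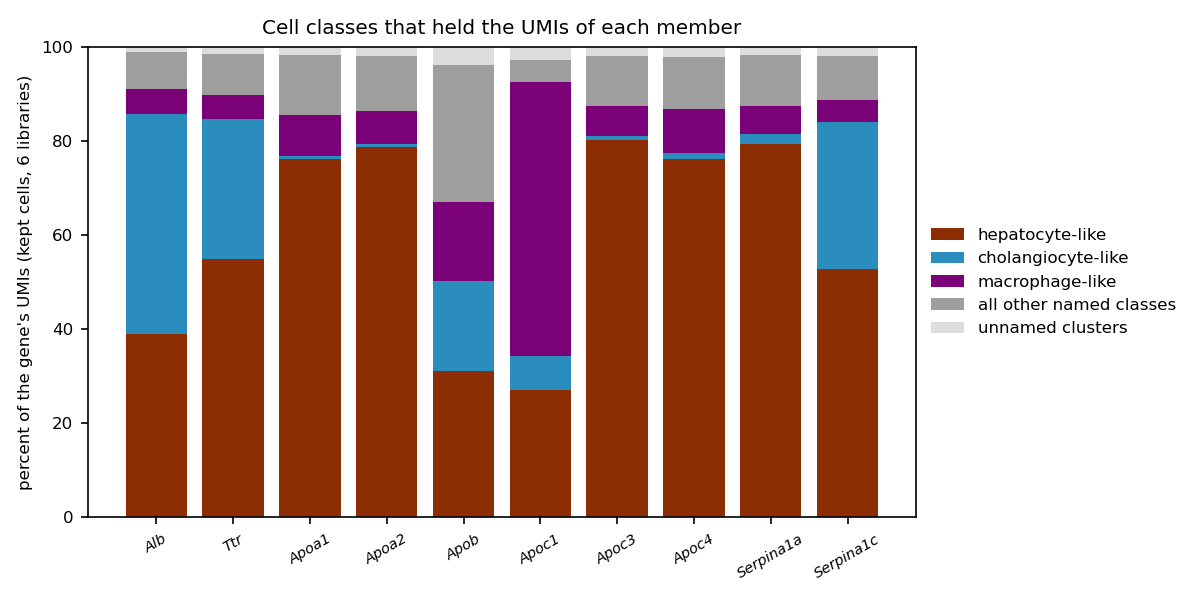
Stacked bars give, for each gene, the percent of its UMIs in kept cells of the 6 libraries that fell in hepatocyte-like, cholangiocyte-like, macrophage-like, all other named and unnamed cells. Alb, Ttr, Serpina1c and Apob have large cholangiocyte-like segments and Apoc1 a macrophage-like one, whereas Apoa1, Apoa2, Apoc3, Apoc4 and Serpina1a lie mostly in hepatocyte-like cells.

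Cholangiocyte-like cells, the lining of the bile ducts, numbered 125, 107 and 58 in vehicle and 76, 136 and 56 in ginkgetin libraries. In them Alb reached 8799.7, 8550.0 and 3505 CPM in vehicle and 6935, 6359.6 and 4339.8 in ginkgetin libraries. Per library this was 35.3% to 69.9% of the hepatocyte-like level of Alb (5 libraries). Ttr reached 2823, 2442 and 1239 in vehicle and 2685, 2148 and 1353 in ginkgetin libraries, 16.3% to 39.7% of its hepatocyte-like level. In every library, both genes were far above their level in T cell-like cells, which should not make them, where Alb was at 0.119% to 2.66% and Ttr at 0.10% to 1.17% of the hepatocyte-like level.

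The lipoprotein genes split. Apoa2 in cholangiocyte-like cells was at 48.9, 78.9 and 77.8 in vehicle and 21.0, 139 and 13.2 in ginkgetin libraries, which was 0.184% to 0.558% of its hepatocyte-like level. Apoa1 (9.95, 34.5 and 45.8 in vehicle, 13.3, 45.0 and 14.7 in ginkgetin) was at 0.128% to 0.80%, Apoc3 at 0.211% to 0.680% and Apoc4 at 0.418% to 1.37% of theirs. Apoc3 measured 19.9, 32.1 and 35.1 in vehicle and 15.3, 52.4 and 4.41 in ginkgetin libraries, and Apoc4 12.4, 12.3 and 30.5 and 11.4, 35.6 and 17.6. These low shares overlapped those of T cell-like cells for all 4 genes. Apob measured 35.7, 25.9 and 38.1 in vehicle and 30.5, 26.2 and 60.3 in ginkgetin libraries, overlapping, and was 4.31% to 87.3% of a hepatocyte-like level that itself differed between groups.

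When cholangiocyte-like cells were compared with T cell-like cells of the same libraries, 5 of the 10 genes were higher, against 26.6% of all genes tested, and none was lower, against 22.1%. This comparison, an edgeR fit with library as a term, was added after the Alb signal in cholangiocyte-like cells had been seen. The log2 fold change was 6.39 (SE 0.61, adjusted p 4.09e-07) for Alb and 5.35 (SE 0.58, adjusted p 1.76e-06) for Ttr. It was 4.70 (SE 0.54, adjusted p 2.77e-06) for Serpina1c, 4.29 (SE 0.61, adjusted p 2.20e-05) for Apoc1 and 3.09 (SE 0.59, adjusted p 3.17e-04) for Apob. Apoa1, Apoa2 and Apoc3 had estimates of -0.74, -0.92 and -0.62, while Apoc4 and Serpina1a had 0.35 and 0.80. Serpina1a (adjusted p 0.0203) and Apoa2 (0.00639) did not reach the fold of 2. The count higher was 5 or 6 on leaving out each library in turn, 6 without vehicle 3, and Apoa2 was called lower without vehicle 1, ginkgetin 1 or ginkgetin 2 (-1.04). In hepatocyte-like cells 10 of 10 genes were higher than in T cell-like cells by log2 5.58 to 7.92, against 25.9% of all genes, and 0 were lower, against 35.8%.

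The same contrast was visible cell by cell. With every cell thinned to 1000 UMIs, Alb had a UMI in 98.0, 97.3 and 86.0 percent of cholangiocyte-like cells in vehicle and 98.0, 97.7 and 94.5 percent in ginkgetin libraries. In T cell-like cells the thinned Alb shares were 2.59, 8.78 and 23.9 percent in vehicle and 0.935, 7.17 and 1.63 percent in ginkgetin libraries. Thinned Apoa2 shares were 1.29% to 14.0% in cholangiocyte-like and 0.480% to 18.2% in T cell-like cells, which overlapped. Without thinning, Alb was found in 99.4% and 100% of cholangiocyte-like cells on average in the vehicle and ginkgetin libraries, at median depths of 8034.5 and 6345 UMIs, and in 32.5% and 10.1% of T cell-like cells, at 3326 and 3212.5 UMIs. The 18 hepatocyte markers, none of them among the 10 genes, summed to 441 to 822 CPM in cholangiocyte-like cells and 48.4 to 389 in T cell-like cells, beside 31302 or more in hepatocyte-like cells.

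**Figure D3:**
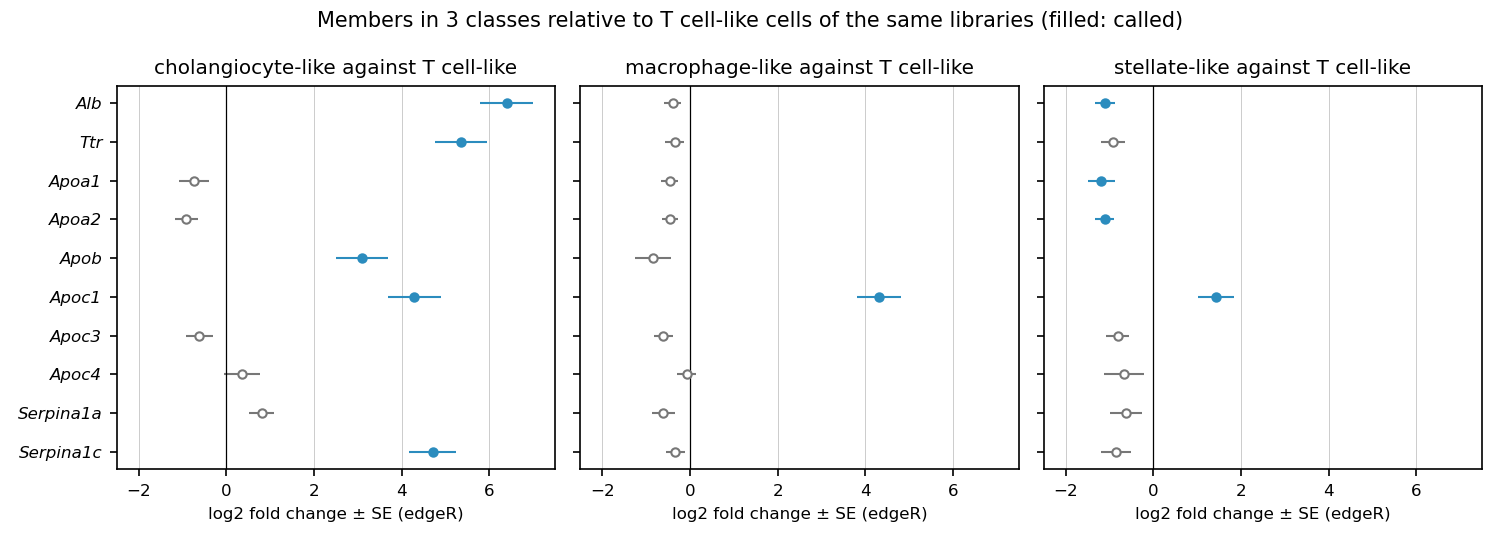
Points give the log2 fold change (edgeR, bars ± SE) of each gene in cholangiocyte-like, macrophage-like and stellate-like cells against T cell-like cells of the same libraries; filled points passed adjusted p under 0.05 and fold over 2. In cholangiocyte-like cells Alb, Ttr, Serpina1c, Apoc1 and Apob lie right of 0, and in macrophage-like cells Apoc1 alone does among the filled points.

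Among the 10 genes, Serpina1c had the log2 estimate farthest from 0 between groups in cholangiocyte-like cells. It measured 1885, 1949 and 1196 CPM in vehicle libraries and 273, 437 and 44.1 in ginkgetin libraries, without overlap, the lowest vehicle library lying above the highest ginkgetin library. The log2 fold change was -2.67 (SE 0.61, adjusted p 0.0740) in edgeR, short of the threshold, and in that fit 0 of the 10 genes were called, against 0.887% of 7780 genes tested. Leaving out single libraries, the Serpina1c value was -3.36 to -2.16 (lowest without ginkgetin 2, highest without ginkgetin 3), with an edgeR adjusted p of 0.0167 without ginkgetin 3 and of 0.0680 to 0.262 otherwise. At an unadjusted p under 0.05 there were 3 (Apoc1, Serpina1a and Serpina1c), and DESeq2 called 0. With the replicate block, that is, replicate number as a term, the Serpina1c value was -3.08 (SE 0.43, edgeR adjusted p 0.00120) and 1 of 10 genes was called, against 1.94% of all genes. Thinned to 1000 UMIs, Serpina1c had a UMI in 44.3, 45.4 and 44.4 percent of cholangiocyte-like cells in vehicle and 12.8, 21.1 and 4.28 percent in ginkgetin libraries, and unthinned in 72.8, 73.8 and 77.6 percent against 32.9, 52.9 and 26.8 percent. In T cell-like cells the thinned Serpina1c shares were 0.157% to 4.19%.

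The other antitrypsin copies varied between libraries in cholangiocyte-like cells. Serpina1a was at 43.1, 44.4 and 58.0 in vehicle and 0, 35.6 and 4.41 in ginkgetin libraries, also without overlap, with a log2 estimate of -1.57 (SE 0.65, adjusted p 0.296) in edgeR. The estimate was -4.22 (adjusted p 0.0164) without ginkgetin 2 and -1.67 to -1.11 without any other library. Serpina1b was at 77.1, 138 and 186 in vehicle and 5.72, 47.1 and 13.2 in ginkgetin libraries, and was lower with the replicate block (-2.58, edgeR adjusted p 0.00157). Serpina1d (24.9, 23.4 and 13.7 in vehicle, 0, 20.9 and 10.3 in ginkgetin) and Serpina1e (13.3, 18.5 and 6.10 in vehicle, 15.3, 46.1 and 19.1 in ginkgetin) overlapped between groups. Whether reads shifted between these near-identical copies was not tested.

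For Apoc1 the order of the groups in cholangiocyte-like cells was opposite to that of Serpina1c. Its level was 2122, 1784 and 1475 in vehicle and 4075, 3209 and 2378 in ginkgetin libraries, all ginkgetin libraries being higher, with a log2 estimate of 0.88 (SE 0.33, adjusted p 0.264) in edgeR that did not pass. The thinned share of cells with an Apoc1 UMI was 69.8, 65.6 and 63.6 percent in vehicle and 88.5, 84.6 and 77.8 percent in ginkgetin libraries, likewise apart. The estimates of the 7 other genes lay between -0.21 (Alb) and 0.41 (Apoc4). Neighbouring Apoe overlapped between groups, at 17004, 15302 and 13067 in vehicle and 16291, 14396 and 14453 in ginkgetin libraries.

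Cluster and marker values moved with the groups and replicates as well. Most cholangiocyte-like cells of replicates 1 and 2 fell in a cluster led by Clu, Spp1 and Tm4sf4, and those of replicate 3 in a cluster led by Sorbs2, Dsg2 and Clu. Within replicates 1 and 2 alone the Serpina1c value was -2.35 (edgeR adjusted p 0.00107). Summed cholangiocyte markers were 33585 to 44603 CPM in vehicle and 19884 to 23698 in ginkgetin libraries (10 of 10 with a UMI), endothelial markers 73.8 to 146 and 203 to 1022 (12 of 12), and hepatocyte markers 441 to 822 and 479 to 668 (18 of 18). Their part in the Serpina1c and Apoc1 differences was not tested.

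**Figure D4:**
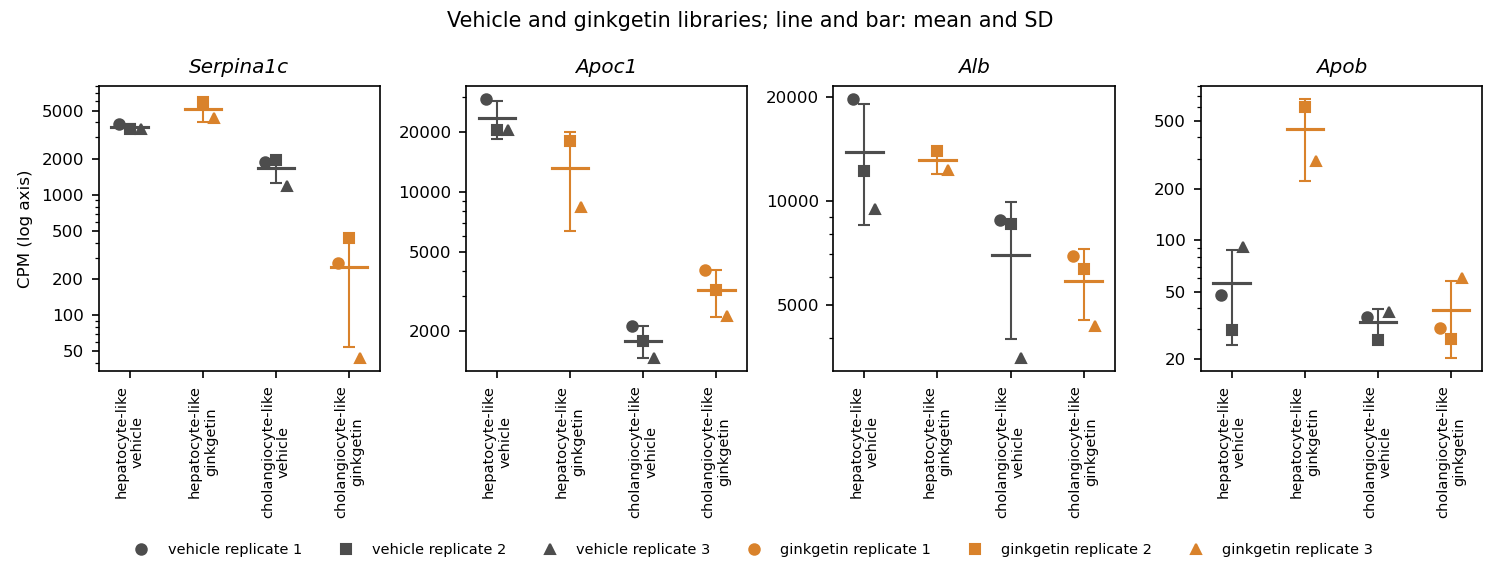
CPM (log axis) of Serpina1c, Apoc1, Alb and Apob in hepatocyte-like and cholangiocyte-like cells of vehicle (grey) and ginkgetin (orange) libraries; each point is 1 library and the line and bar are the mean and SD. In cholangiocyte-like cells the ginkgetin points lie below the vehicle points for Serpina1c and above them for Apoc1. In hepatocyte-like cells the reverse holds, with Apob above in ginkgetin, but neither Serpina1c nor Apoc1 passed the fit there.

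In cholangiocyte-like cells, 44 of all genes were called higher and 25 lower with ginkgetin. These 69 calls became 15 without ginkgetin 1, 22 without vehicle 1, 25 without ginkgetin 2 and 31 without vehicle 2, and 163 (96 higher, 67 lower) with the replicate block. Of the 29 secreted plasma proteins, 18 were tested, 3 were lower with ginkgetin and none higher. The vitamin D carrier Gc fell from 589, 372 and 397 CPM to 57.2, 85.9 and 66.2, a log2 change of -2.66 (SE 0.29, adjusted p 7.91e-04) in edgeR. Haptoglobin (Hp) fell from 104, 40.7 and 169 to 5.72, 18.8 and 7.35 (log2 change -3.11, edgeR adjusted p 0.0223), and the fibrinogen chain Fgb changed by -2.70 (0.0453). The groups were apart for Gc and Hp. The Gc call was kept on leaving out each library (-2.88 to -2.43), the Hp call was lost without vehicle 1, ginkgetin 1 or ginkgetin 3 (edgeR adjusted p 0.0636 to 0.136), and the Fgb call was lost without any 1 library (0.0976 to 0.188). Under the block 4 were lower, Serpina1b being the other. The copper carrier Cp, the most abundant of the list, had an estimate of 0.88 (0.225). Of the 27 lipoprotein genes 14 were tested, and some of their results, including the count called, are not reported here. Abca1, a cholesterol exporter, had an estimate of -2.23 (edgeR adjusted p 0.0599; with the replicate block -2.24, 0.0371) and Clu, a lipid-binding chaperone, of -0.36 (0.696). None of 4 tested enzymes and 13 tested regulators passed.

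Because the groups were ordered oppositely in CPM for Serpina1c and Apoc1 in hepatocyte-like and cholangiocyte-like cells, the difference between the ginkgetin effects was fitted directly in edgeR. The fit had library as a term and used the 5 libraries that had both classes. It was added after the data had been seen. Fitted class by class, Serpina1c was at 0.14 in hepatocyte-like and -2.67 in cholangiocyte-like cells, and Apoc1 at -1.20 and 0.88, none passing. For Serpina1c, the log2 effect in hepatocyte-like minus that in cholangiocyte-like cells was 3.34 (SE 0.51, adjusted p 1.18e-07). Leaving out a vehicle library gave 3.24 to 3.57. Leaving out ginkgetin 2 or 3 gave 5.09 and 1.91, and then 1 ginkgetin library remained, whose spread was assumed to be like that of the others. For Apoc1 it was -2.12 (SE 0.48, adjusted p 0.00382), and the call was lost on leaving out any vehicle library (-2.15 to -2.07, adjusted p 0.114 to 0.157). For Apob it was 2.0 (SE 0.59, adjusted p 0.0672). Thus 2 of 10 genes passed, against 1.01% of 8876 genes tested. The count was 1 without any vehicle library, 4 without ginkgetin 2 (Ttr, Apoc1, Serpina1a and Serpina1c) and 5 without ginkgetin 3 (Apoa2, Apob, Apoc1, Apoc4 and Serpina1c), where Apob was at 3.13 (adjusted p 0.0100).

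Apoc1 was the only one of the 10 that stood high in macrophage-like cells. In this class, which numbered 2159, 1196 and 1664 cells in vehicle and 221, 464 and 679 in ginkgetin libraries, Apoc1 measured 1939.8, 1462 and 1743 CPM in vehicle and 1872, 1330.2 and 1075 in ginkgetin libraries. That was 6.59% to 12.8% of the hepatocyte-like level, where the other 9 genes were each at 0.0805% to 5.99%. Against T cell-like cells of the same libraries, 1 of 10 genes was higher (20.4% of all genes) and none lower (18.2%): Apoc1, at 4.32 (SE 0.50, adjusted p 1.04e-05) on the log2 scale. The other 9 estimates ran from -0.85 to -0.07. Apob was called lower without ginkgetin 2 (-1.13, edgeR adjusted p 0.0375) or without ginkgetin 3 (-1.03, edgeR adjusted p 0.0346). Thinned to 1000 UMIs, 32.4, 32.9 and 35.7 percent of macrophage-like cells had an Apoc1 UMI in vehicle and 42.0, 46.3 and 45.6 percent in ginkgetin libraries, beside 6.45, 13.0 and 27.0 and 2.10, 12.5 and 1.45 percent of T cell-like cells. Macrophage-like cells were deeper in vehicle than in ginkgetin libraries (median 8366 and 3096 UMIs), and the thinned shares and the CPM ordered the groups oppositely, so no order between groups is read from the shares.

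The Apoc1 signal was uneven among macrophage clusters. It was 6202 CPM in a cluster led by Folr2, Fabp7 and Vsig4 and 5054 in one led by Mmp12, Cd5l and Gdf15, the latter nearly all from 1 library. Clusters led by Marco, C6 and Cd163 or by Mmp12, AF251705 and Ms4a7 held 1945 and 1696. It was lowest, 103 to 328, in 4 clusters led by Plac8, by Chil3, by Cd300c2 and by Fcgr4. Folr2, Vsig4, Cd5l and Marco are known from resident Kupffer cells (KCs), and Plac8 and Chil3 from recently recruited monocytes, but clusters were compared here only as descriptions.

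Between groups, Apoc1 in macrophage-like cells had a log2 estimate of -0.53 (SE 0.38, adjusted p 0.411). None of the 9 genes tested passed in edgeR, against 6.66% of 10372 genes, with 0 at an unadjusted p under 0.05 and 0 in DESeq2. Of 16 tested lipoprotein genes in these cells 5 were lower and none higher, where 399 of all genes were higher and 292 lower. These 691 calls became 10 without vehicle 1, 15 without vehicle 2 and 18 without ginkgetin 2, and the list's 5 became 0, 1 and 0. The list's count was also 1 lower and 1 higher without vehicle 3 and 0 of 10 with the UMI range, and with the replicate block 6 were lower and 2 higher of 17. Apoe, the neighbour of Apoc1, fell from 32649.7, 32639.8 and 51411 CPM in vehicle to 4931, 7535 and 9869 in ginkgetin libraries, log2 change -2.73 (SE 0.47, adjusted p 0.0201) in edgeR, every vehicle library lying well above every ginkgetin library. The class was made up of different clusters in the groups: the clusters led by Mmp12, AF251705 and Ms4a7, by Cd300c2 (with Apoe among its leading genes) and by Mmp12, Cd5l and Gdf15 were mostly vehicle cells, and the cluster led by Marco, C6 and Cd163 mostly cells of ginkgetin 3. Summed macrophage markers were 30634 to 36505 CPM in vehicle and 18634 to 28783 in ginkgetin libraries, and endothelial markers 285 to 316 and 690 to 1537 (12 of 12 with a UMI in both lists). T cell markers were 14.9 to 19.0 and 59.3 to 72.5 CPM, and cholangiocyte markers 257 to 616 and 48.7 to 169 (10 of 10 in both lists). Dendritic markers were 3341 to 4438 and 2594 to 2987 CPM (12 of 12), and plasma cell markers 180.0 to 261 and 285 to 714 (9 of 9). The part of these values in the result was not tested. Angptl4 and Lpl, an inhibitor and the enzyme of plasma triglyceride hydrolysis, changed by -2.84 and -1.65 (edgeR adjusted p 0.0125 and 0.0372). The Apoe call was lost without any 1 vehicle library or ginkgetin 2 (edgeR adjusted p 0.0519 to 0.0969), the Angptl4 call without vehicle 1 or ginkgetin 2 (0.0520 and 0.0562), and the Lpl call without any 1 library except ginkgetin 3 (0.0557 to 0.136). With the UMI range Lpl was at 0.12, and Apoe at -2.04 (edgeR adjusted p 0.0861).

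In stellate-like cells (26, 42 and 53 in vehicle, 24, 73 and 70 in ginkgetin libraries) Apoc1 was again the exception. It stood at 163, 295 and 362 CPM in vehicle and 518, 539.6 and 144 in ginkgetin libraries, with the groups overlapping. Against T cell-like cells it was higher, at 1.42 (SE 0.41, adjusted p 0.00686) on the log2 scale, 1 of 9 genes tested (26.5% of all genes), while Alb, Apoa1 and Apoa2 were lower, 3 of 9 (21.0%). The count lower was 2 of 9 without vehicle 3 and 5 of 9 without ginkgetin 2. A cluster led by Dcn, Cxcl12 and Colec11 held 469 CPM of Apoc1 and a cluster led by Igfbp6 and Igfbp5 held 74.2. The latter had 6 of 10 stellate and 4 of 10 cholangiocyte markers, and Upk3b and Clec3b among its leading genes, so the class may pool cell types. Before filtering it held 24 barcodes of vehicle 1 and 55 of ginkgetin 3, beside 8 and 52 in the former. In the remaining libraries it held no more than the former. Its part in the Apoc1 level was not tested. Stellate-like cells were not tested for 5 of the 10 genes between groups; none of the 5 tested passed in edgeR, against 0.0% of 4645 genes.

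In endothelial-, dendritic-, B cell-, NK cell- and plasma cell-like cells none of the genes tested was called higher or lower than in T cell-like cells, the log2 estimates running from -0.85 to 0.64. In B cell-like cells all 10 estimates were positive, 0.23 to 0.64, and 6 had an edgeR adjusted p under 0.05 with a fold under 2, Ttr (0.59, adjusted p 1.52e-04) having the lowest. In dendritic-like cells all 10 were negative, and 5 had an adjusted p under 0.05 with a fold under 2, as had 4 of 9 in plasma cell-like cells, also negative. Of all genes, 23.8% were higher and 20.5% lower in endothelial-like, 17.1% and 13.2% in dendritic-like, 8.86% and 11.2% in B cell-like, 3.6% and 3.19% in NK cell-like and 16.6% and 16.3% in plasma cell-like cells. T cell-like cells numbered 1129, 628 and 780 in vehicle and 1105, 967 and 574 in ginkgetin libraries. In them Alb was at 26.9, 95.1 and 252 CPM in vehicle and 10.5, 71.3 and 14.6 in ginkgetin libraries, and Apoa2 at 36.6, 145 and 191 and 5.24, 122 and 9.93. Ttr was at 23.8, 87.5 and 83.2 and 5.24, 62.8 and 3.40. The antitrypsin Serpina1c was at 8.03, 21.2 and 38.2 and 1.54, 43.0 and 6.27. For these genes the same libraries were high and low: vehicle 2, vehicle 3 and ginkgetin 2 were high, and vehicle 1, ginkgetin 1 and ginkgetin 3 low. Over the 10 genes, the summed level in T cell-like cells was 46.6 to 1087 CPM.

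**Figure D5:**
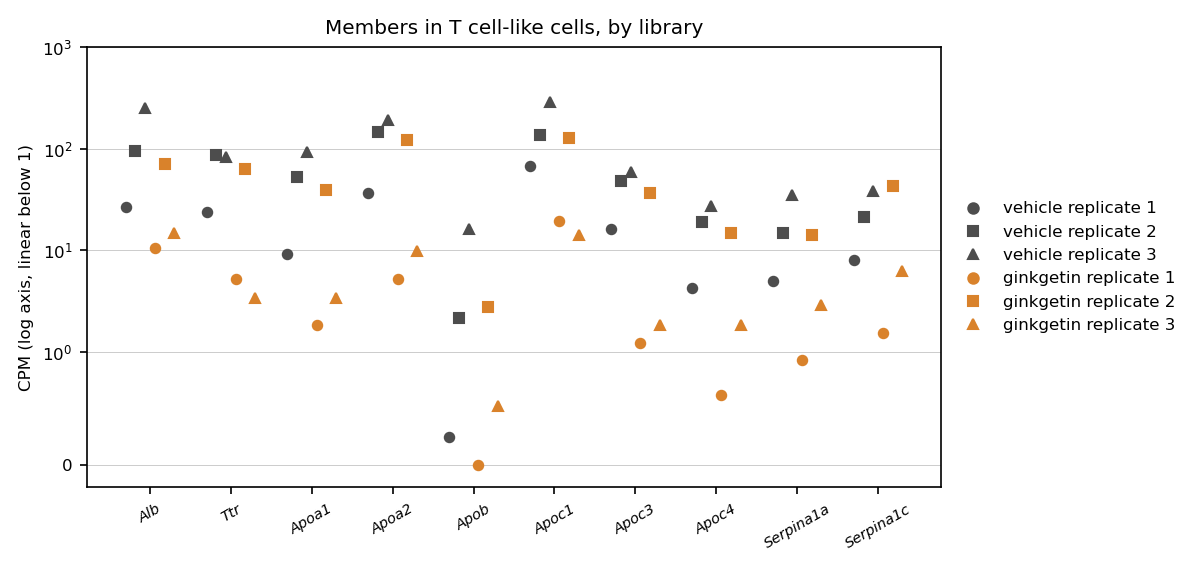
CPM (log axis, linear below 1) of the 10 genes in T cell-like cells; each point is 1 library, grey for vehicle and orange for ginkgetin. For most genes, vehicle 2, vehicle 3 and ginkgetin 2 lie above vehicle 1, ginkgetin 1 and ginkgetin 3, so the groups overlap.

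The low signal was also counted per cell instead of as CPM. In vehicle libraries 1, 2 and 3, Apoa2 gave 0.129, 0.424 and 0.900 UMIs per T cell-like cell, 0.113, 0.443 and 0.958 per B cell-like cell and 0.211, 0.680 and 1.14 per macrophage-like cell. In ginkgetin libraries 1, 2 and 3 it gave 0.0154, 0.415 and 0.0662 per T cell-like cell. Per B cell-like cell the ginkgetin values were 0.0222, 0.428 and 0.0716, and per macrophage-like cell 0.0407, 0.494 and 0.0633. Libraries thus differed more than these classes did within a library. Across the 7 classes other than hepatocyte-, cholangiocyte- and stellate-like cells, the mean depth per cell in vehicle 3 differed 7.46-fold, while the per-cell value differed 1.35-fold for Apoa2 and 1.27-fold for Alb, and the CPM value 5.92-fold and 6.82-fold. In the other 5 libraries the per-cell folds between classes were 3.33 to 6.27 for Alb and 2.07 to 11.8 for Apoa2, beside CPM folds of 1.80 to 3.11 and 1.99 to 13.4. In those libraries the per-cell fold was the larger for Alb, while for Apoa2 it was slightly the smaller in vehicle 2 (2.07 and 2.17) and ginkgetin 1 (11.8 and 13.4). For Apoc1, with its macrophage-like signal, the per-cell fold in vehicle 3 was 19.3.

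Between groups, T cell-like cells gave no call for the 9 genes tested in edgeR, against 0.0% of 9356 genes, where 1101 genes had an unadjusted p under 0.05 and DESeq2 called 118 genes. No thinned share of T cell-like cells with a UMI passed for any of the 10 genes (two-sided exact permutation test, p 0.2 to 0.7, adjusted over the 10 genes 0.333 to 0.7, smallest possible p 0.1). The ginkgetin share was the lower in 3 of 3 same-numbered pairs for Alb, Ttr, Apoa1, Apoa2, Apoc1 and Apoc3 and in 2 of 3 for the other 4. The test ignores these numbers, which are not shown to pair the libraries. Most of these genes rose and fell together by library, and the same count over all genes is not given here. No order between groups is therefore read from these pairs. With T cell-, B cell-, NK cell- and plasma cell-like cells summed, all 10 log2 estimates were negative, from -2.24 for Apob to -0.07 for Serpina1c, with a median of -1.20 beside 0.01 over all 10666 genes, and none passed (0.0% of all genes, 1404 at an unadjusted p under 0.05, DESeq2 164). With the replicate block 0 of 10 passed there as well, against 0.744%. The fits of ginkgetin against vehicle in B cell-, dendritic-, NK cell-, plasma cell- and endothelial-like cells called 0 members, against 0.0%, 0.0913%, 0.0621%, 0.0173% and 0.876% of all genes. In these classes and in T cell- and stellate-like cells DESeq2 called 0 members as well, and 1 member had an unadjusted p under 0.05, Alb in NK cell-like cells. With the replicate block, 3 genes were lower in NK cell-like cells (Alb, Apoa2 and Ttr, 2.05% of all genes) and 2 in endothelial-like cells (Apoa1 and Apoc1, 3.96%). The Alb value in NK cell-like cells was then -2.26 (edgeR adjusted p 0.0155).

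Summed over all non-hepatocyte-like named cells, Apoc1 was lower with ginkgetin. It was at 1165, 937 and 1118 CPM in vehicle and 454, 422 and 241 in ginkgetin libraries, with a log2 change of -1.79 (SE 0.38, adjusted p 0.0191) in edgeR, 1 of 10 genes against 13.0% of all genes. The groups were well apart. The macrophage-like class, with 58.3% of Apoc1 UMIs over all libraries, held 1196 to 2159 kept cells per vehicle library and 221 to 679 per ginkgetin library. Without cholangiocyte-like cells the Apoc1 values were 1129, 893 and 1112 and 233, 265 and 176 (log2 change -2.5, 14.8% of all genes called). The Apoc1 call was lost without vehicle 1, vehicle 2 or ginkgetin 2 (log2 change -1.91 to -1.71) and with the UMI range (-0.70). With the replicate block 2 genes were called, Serpina1c being the other at -1.76 (edgeR adjusted p 0.0058), against 15.2% of all genes.

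In whole libraries, with every kept cell summed and no class used, Apoc1 was at 1283, 1434 and 1628 in vehicle and 359, 393 and 364 in ginkgetin libraries, a log2 change of -2.25 (SE 0.27, adjusted p 0.00267) in edgeR. It was 1 of 10 genes called, against 14.2% of all genes, and its call was kept on leaving out each library but lost with the UMI range (-1.61). Apoa2 had an estimate of -2.45 (SE 0.96, adjusted p 0.110), Apoc3 of -2.67 (SE 0.97, adjusted p 0.0926) and Alb of -0.95 (SE 0.32, adjusted p 0.0741); all 10 estimates were negative. Ttr stood at 196, 499 and 253 in vehicle and 126, 188 and 99.1 in ginkgetin libraries, Serpina1c at 90.8, 201 and 133 and 14.3, 74.7 and 86.7, and Apob at 1.91, 2.98 and 10.0 and 1.53, 5.52 and 7.77. Alb was at 423, 785 and 434 and 321, 377 and 351. With the replicate block, 8 of 10 were called lower, against 17.0% of all genes, the exceptions being Alb (log2 -0.90, fold under 2) and Apob (-0.27). The 10 genes together made up 2330.3, 4262 and 3546 CPM in vehicle and 837, 1390.3 and 1203 in ginkgetin libraries, and hepatocyte-like cells were more frequent in vehicle 2, vehicle 3 and ginkgetin 3 than in the other libraries.

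Genes whose level across non-hepatocyte-like classes was most like that of the 10 genes were Urah, Mgst1, Ahsg, Fgg and Rbp4. The Pearson r of log2(CPM + 1) with the summed 10 genes was 0.857, 0.856, 0.831, 0.829 and 0.824 over 54 class-by-library sums, among 10466 genes. Ahsg (fetuin-A), Fgg (a fibrinogen chain) and Rbp4 (the retinol carrier that binds transthyretin) are secreted plasma proteins, while Mgst1 is a microsomal glutathione transferase. Without the cholangiocyte-like sums r was 0.680, 0.741, 0.603, 0.626 and 0.656 over 48 sums. The points share libraries and depth, so no p is given. Ahsg was at 317 to 717 CPM in cholangiocyte-like cells and at most 48.9 in the other classes compared.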

How the data were processed

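The authors deposited gene-by-barcode tables of UMI counts, 1 per library and not normalized. The methods name a 10x Chromium workflow, whereas the protocol in the labels names another kit, and the submitters' processing notes name GRCm38 and mm10; the aligner's version is not given in the sources used here. The 10 members, the gene lists, the markers and the comparisons were chosen with earlier results of these data known.

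The methods state a range of 250 to 5000 and under 5% mitochondrial content; the range was applied here to detected genes, since it is worded for UMIs but would then leave 16821 cells, and the UMI range was an alternative. No doublet caller was run. Of named non-hepatocyte-like cells, 6 had hepatocyte markers at 1% or more of their UMIs. Counts were scaled to 10000 per cell, logged, and clustered with scanpy 1.11.5 (2000 variable genes, 30 components, 15 neighbours, Leiden resolution 1), leaving out secreted hepatocyte proteins. Clusters were named from 133 markers, 1 of them not listed in the tables; 3011 kept cells stayed unnamed.

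Counts were summed per library and class (10 or more cells) and tested on the whole table with edgeR 4.0.16 (TMM, filterByExpr, glmQLFTest, group as the only term, Benjamini-Hochberg; called at adjusted p under 0.05 and fold over 2). DESeq2 1.42.0 was an alternative. The scripts were tested on simulated data. Thinning to 1000 UMIs left out 2 vehicle T cell-like cells, and 2 vehicle and 58 ginkgetin macrophage-like cells. The 10 members are always named; from each other list up to 4 genes are named per comparison, the 3 with the smallest p and the most abundant 1. Some results for the lipoprotein list in cholangiocyte-like cells are not reported here. For likeness, the 5 genes with the highest r and a mean of 5 CPM or more are named. Median depths of kept cells bound the precision of each share, which covers counting error only.

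Replicate numbers are shared between groups in the labels. Deviations of same-numbered libraries from their group means had a positive r in every sum checked. It was 0.293, 0.165 and 0.522 for numbers 1, 2 and 3 in cholangiocyte-like cells, and 0.541, 0.510 and 0.791 in whole libraries. Every number matched its own best in whole libraries and macrophage-like cells, but not in the cholangiocyte-like, lymphoid and all non-hepatocyte-like sums. Replicate 3 stood apart in barcodes and genes in both groups, which alone can raise these r. They cannot show that the numbers pair the libraries, so the replicate block is an alternative only. Other alternatives were no gene filter, no cell filter, a marker gate, RLE scaling, the barcode set as a block, replicates 1 and 2 only, the deepest 5% of cells left out, and each library left out.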

Additional observations from a re-analysis of the deposited data

Results flagged for a closer look

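For Serpina1c and Apoc1 the difference between the ginkgetin effects in hepatocyte-like and cholangiocyte-like cells passed its own test. That fit was added after the opposite order of the groups in CPM had been seen. Fitted class by class with group as the only term, neither gene passed in either class. The Serpina1c estimate was then 0.14 in hepatocyte-like and -2.67 in cholangiocyte-like cells. The log2 difference was 3.34 (SE 0.51, edgeR adjusted p 1.18e-07) for Serpina1c and -2.12 (SE 0.48, edgeR adjusted p 0.00382) for Apoc1. The Apoc1 call was lost on leaving out any vehicle library (edgeR adjusted p 0.114 to 0.157). The fit rests on 5 libraries, with 12 hepatocyte-like cells in ginkgetin 2 and none in ginkgetin 1.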

How the results depend on the processing

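The counts of members called moved with several settings; causes were not tested. In hepatocyte-like cells the count of 1 became 0 with the UMI range, the marker gate, no cell filter or the deepest 5% of cells left out, and was 0 to 1 leaving out single libraries. Over all non-hepatocyte-like cells the count of 1 became 0 with the UMI range or with lymphoid cells alone, 2 with the replicate block, the barcode-set block or no cell filter, and was 0 to 4 leaving out single libraries (4 without ginkgetin 2). Over single non-hepatocyte-like classes the count of 0 became 6 with no gene filter or with the replicate block, 1 with the barcode-set block, replicates 1 and 2 only, or no cell filter, and was 0 to 2 leaving out single libraries. In whole libraries the count of 1 became 0 with the UMI range, 3 with DESeq2 or no cell filter, 2 with the barcode-set block and 8 with the replicate block. The block changed no call of the 10 genes other than those printed here or in the report.

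Directions that turned, in log2, were as follows. In hepatocyte-like cells, no cell filter gave 0.072 for Alb and 0.029 for Serpina1a; replicates 1 and 2 only gave 0.11 for Apoa1 and 0.46 for Serpina1a; Serpina1a was 0.36 with the UMI range, 0.089 with the marker gate and 0.15 without the deepest cells; and Serpina1c was -0.23 with no gene filter and -0.0042 with the replicate block. Leaving out single libraries gave -1.97 to 0.044 for Apoa1, -0.46 to 0.20 for Serpina1a and -0.20 to 0.46 for Serpina1c there, and in cholangiocyte-like cells -0.55 to 0.0057 for Alb, -0.33 to 0.23 for Ttr and -0.17 to 0.45 for Apob. Apob there was -0.10 with replicates 1 and 2 only and -0.34 with no cell filter. Macrophage-like Apoc1 was 0.48 with the UMI range. Lymphoid Serpina1c was 0.85 with replicates 1 and 2 only and -2.23 to 0.45 leaving out single libraries. Relative to Apoa2 in place of Alb, the cholangiocyte-like log2 ratios against T cell-like cells were 4.96 for Apoc1, 5.31 for Serpina1c and 4.62 for Apob (to Alb, -1.99, -1.64 and -2.33).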

Other observations

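Within a library, the ratio of each member to Alb was also compared between each class and T cell-like cells (81 pairs, two-sided exact permutation test by sign flips over libraries). None passed after adjustment (smallest sign-flip p 0.0312, adjusted 0.230). With at most 6 libraries 0.0312 is the smallest possible p, so over 81 pairs a pass was hardly possible and the lack of one is not informative. In macrophage-like cells the ratio of Apoc1 to Alb was higher by 4.69 on the log2 scale (SD 1.20), in 6 of 6 libraries, and in stellate-like cells by 2.78 (SD 1.89).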
